A study of Drosophila melanogaster with 5 samples.

Results

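Chromatin immunoprecipitation followed by sequencing (ChIP-seq) with an antibody against Pita gave 315 autosomal sites in Drosophila melanogaster embryos that were called over input DNA but not over a precipitate made with preimmune rabbit serum, and that carried neither ZIPIC nor Zw5. They were chosen by overlap of called intervals: on chromosome arms 2L, 2R, 3L and 3R, every interval of the Pita list against input was kept that shared no base with the Pita list against preimmune serum and none with the input lists of ZIPIC and Zw5. The Pita list against input held 1845 intervals in all, 1404 of them on these 4 arms. Of the 1404, 356 (25.4%) had no preimmune call and 1134 (80.8%) carried no ZIPIC or Zw5 interval. The 315 are 27.8% of the 1134, and the other 819 Pita-alone intervals were called against both controls. These shares are fixed by the choice of sites and carry no test.

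All 5 libraries came from wild-type Oregon-R embryos grown at 25 °C, collected over 12 h and fixed for 15 min in 1.8% formaldehyde. The Pita antibody was raised in rabbit against residues 550 to 683. The other precipitates were made with antibodies to ZIPIC (residues 84 to 257) and Zw5 (residues 98 to 302) and with preimmune rabbit serum, for which the treatment text names rabbit IgG instead. Input DNA was chromatin that was not precipitated. Whole embryos of mixed stages were used, so a low signal in all cells and a strong signal in few cells cannot be told apart. Each library was sequenced once, and no difference between controls, proteins or sets of sites can be set against a spread between replicates.

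Pita is a DNA-binding protein with C2H2 zinc fingers and an N-terminal zinc-finger-associated domain through which such proteins pair with themselves. It is known as an architectural or insulator protein: it binds boundary elements, among them those of the bithorax complex, and recruits the cofactor CP190. ZIPIC and Zw5 are proteins of the same family. Preimmune serum is taken from the rabbit before immunisation, so its precipitate measures what serum and beads pull down without the antigen-specific antibody.

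The controls differed greatly in depth. In the call against input, the Pita pileup, that is, how many fragments covered a summit, was a whole number for 100% of the 1845 summits. In the call against preimmune serum, 100% of the 1402 Pita pileups were whole reads multiplied by 0.5325, and the 734 summits used to find this factor gave values from 0.532499 to 0.532502. Where several solutions fitted a summit, the one nearest a whole count was taken, so both shares of 100% are partly set by that choice. Of the 1150 local backgrounds of the input call, 25.7% lay on whole multiples of 0.165, against 3.91% for the median of all step sizes tried. MACS2, the peak caller, by default scales the larger library to the smaller one. Under that setting the input library held 6.04 reads, and the preimmune library 0.5325 reads, for each Pita read, so the input was 11.3 times as deep as the preimmune control. The most common background was 9.18 fragments against input and 4.89 against preimmune serum. These values are on different scales, because Pita reads were multiplied by 0.5325 in the preimmune call, so they do not compare the controls.

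The preimmune-lost sites were mostly low over input. Their median fold over input was 3.30 (95% order-statistic interval of the median 3.22 to 3.39; range 2.19 to 9.47), against 17.4 (15.7 to 19.3; range 2.26 to 41.9) at the Pita-alone sites called against both controls and 10.4 over all autosomal Pita intervals. Of the 315, 252 had a fold under 4 and 16 a fold of 5 or more. Fold and q-value are the authors' own values for each interval. These values belong to the contrast that chose the sites and are given as a description.

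The number of fragments behind a lost site was small. The median summit held 36 fragments (35 to 37; range 24 to 106), against 207 (176 to 228; range 34 to 430) at sites called against both controls. The median −log10 q over input was 7.54 (range 1.85 to 65.5), against 179 (range 5.45 to 527). Lost intervals were also shorter, at a median of 272 bp (262 to 280) against 604 bp (587 to 623). Of the 315 lost intervals, 30 had the shortest length found in the list, 218 bp. Intervals called against both controls also reached 218 bp, but how many did so was not counted, so the 30 have no share to compare with. The summit lay at the middle of the interval in both sets, at a median of 0.5 of its length in lost and 0.498 in both-called intervals.

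**Figure D1:**
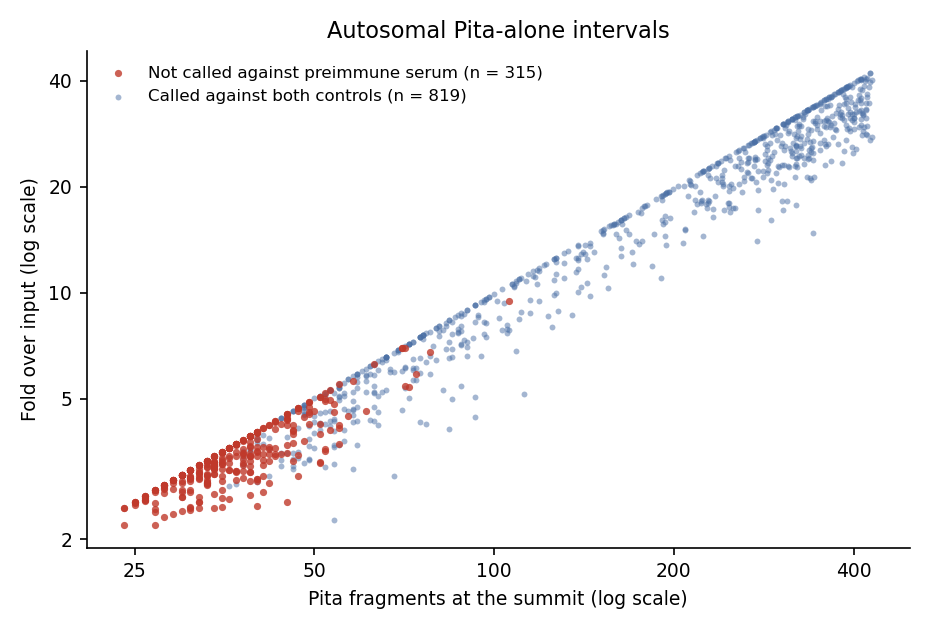
Fold over input against the number of Pita fragments at the summit, both on log scales, for autosomal Pita-alone intervals. Each point is 1 interval: red, the 315 not called against preimmune serum; blue, the 819 called against both controls. Red points reach 106 fragments and 9.47-fold, within the lower part of the blue cloud.

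Input background at lost sites was slightly lower than at the called ones. The median there was 9.73 fragments (9.58 to 9.88; highest 17.0), against 10.2 (10.0 to 10.4; highest 23.3) at sites called against both controls and 10.1 (9.92 to 10.2) over all autosomal Pita intervals. It was above the most common value at 208 of the 315 (66.0%, Wilson 95% interval 60.6 to 71.0), against 565 of the 819 (69.0%, 65.7 to 72.1) and 69.4% of all autosomal Pita intervals. Input background enters the input p by which all these intervals were called, so nothing is read from the lower median. Among sites with 40 to 60 fragments the medians were 10.5 at lost and 10.3 at called sites. The highest input background belonged to chr2L:5980131-5980364, with 17.0 fragments under a pileup of 45. It was followed by chr3R:12377818-12378035 with 15.6 under 40, chr2L:3457069-3457298 with 14.9 under 47, chr2L:574233-574487 with 14.9 under 51, and chr3R:26912138-26912393 with 14.7 under 51. These 5 had folds of only 2.48 to 3.31. Positions are on the dm3 build, counted from 1.

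The strongest lost site was chr2R:11735444-11735859. It held 106 fragments (exact Poisson 95% interval 86.8 to 128) over an input background of 10.3, a fold of 9.47. It was the only lost site with more than 78 fragments, and its nearest Pita preimmune-list interval was 26043 bp away. A group of 3 sites on 2L came next: chr2L:107655-108016 had a fold of 6.98 with 71 fragments (55.5 to 89.6), and chr2L:3657374-3657733 and chr2L:4997960-4998407 both had a fold of 6.97 with 70 fragments (54.6 to 88.4). The fifth was chr3R:11866662-11867030, with a fold of 6.78 and 78 fragments (61.7 to 97.3). These 5 sites lay far above the median lost site in fold and pileup.

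The next of the 12 highest were lower and close together. On 2L they were chr2L:8952684-8953147 (6.29-fold), chr2L:19426552-19426899 (5.88-fold) and chr2L:21237815-21238144 (5.39-fold). On 3L they were chr3L:6988546-6988824 (5.63-fold), chr3L:3303133-3303518 (5.50-fold) and chr3L:18081193-18081494 (5.30-fold), and on 2R there was chr2R:17533061-17533438 (5.44-fold). Their pileups ran from 53 to 74 fragments, with overlapping counting intervals. The next site on 2R was chr2R:3702376-3702699 at 5.00-fold, and the next on 3R were chr3R:16775476-16775834 at 4.97-fold and chr3R:12660419-12660739 at 4.72-fold.

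The weakest lost sites sat at the edge of calling over input. The lowest, chr2L:13843435-13843652, held 24 fragments (15.4 to 35.7) over an input background of 10.4, a fold of 2.19 with a −log10 q of 1.85. The next were chr3R:2606720-2606937 (2.196-fold, 27 fragments), chr3L:19611891-19612108 (2.31-fold, 28 fragments), chr2L:4346609-4346842 (2.35-fold, 29 fragments) and chr3L:21529942-21530170 (2.38-fold, 27 fragments). The first 3 of these had the shortest length of 218 bp. Wide intervals were also found among weak sites: the widest, chr2L:4344462-4345046, was 585 bp long with 31 fragments. The others among the 5 widest were chr2L:14234051-14234633 (583 bp, 54 fragments), chr3L:2407247-2407798 (552 bp, 35 fragments), chr3R:6174790-6175313 (524 bp, 26 fragments) and chr2L:18119511-18120030 (520 bp, 36 fragments).

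The share of sites without a preimmune call fell with the number of Pita fragments. The pileup enters the preimmune p that chose the sites, so this is a description of that choice. With 30 fragments or fewer, a summit could not exceed the weakest p of the preimmune list even at its lowest background. Among Pita-alone sites with 24 to 29 fragments, 43 of 43 were lost (Wilson lower bound 91.8%). The share was 96.9% (91.2 to 98.9) of 96 sites with 30 to 34 fragments and 86.5% (77.9 to 92.1) of 89 with 35 to 39. It was 59.0% (49.9 to 67.5) of 117 sites with 40 to 49 fragments and 25.6% (17.7 to 35.4) of 90 with 50 to 59. It was 10.0% (5.35 to 17.9) of 90 sites with 60 to 79 fragments and 1.37% (0.242 to 7.36) of 73 with 80 to 106. None of the 536 sites with 107 or more was lost (Wilson upper bound 0.712%). By fold over input the share was 94.4% (74.2 to 99.0) of 18 sites under 2.5-fold and 43.9% (34.9 to 53.4) of 107 sites of 4 to 5-fold. It was 5.81% (2.51 to 12.9) of 86 sites of 6 to 8-fold.

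**Figure D2:**
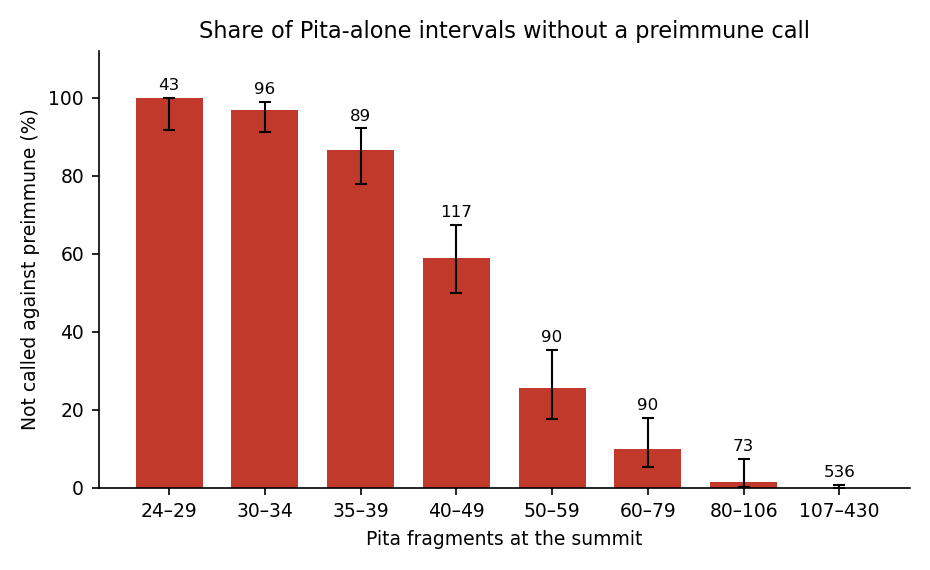
Share of autosomal Pita-alone intervals with no preimmune call (y axis, percent) by the number of Pita fragments at the summit (x axis). Bars are shares, whiskers Wilson 95% intervals that cover counting error only, and the number above each bar is the intervals in that bin. The share falls from 100% at 24 to 29 fragments to 0% at 107 to 430.

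Lost and called sites met between 40 and 60 fragments, where 92 sites were lost and 116 were called against both controls. Within that range the lost sites had fewer fragments, at a median of 45 (43 to 47) against 51 (49 to 53), and a lower fold, 4.06 (3.86 to 4.22) against 4.51 (4.29 to 4.68). The lost intervals were shorter there too, at 302 bp (281 to 315) against 358 bp (347 to 371). Pileup entered the choice of sites, and the lost share fell inside this range as well. It went from 59.0% at 40 to 49 fragments to 25.6% at 50 to 59, so nothing is read from these differences in pileup, fold and length. Input background was 10.5 (9.74 to 10.9) at lost and 10.3 (9.70 to 10.9) at called sites, so it differed by less than its own interval.

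For each lost site, the scaled pileup gives the preimmune background that would have brought its summit down to the weakest p of the preimmune list, a −log10 p of 4.27. Preimmune backgrounds are on the scale of the pileup multiplied by 0.5325, whereas Pita fragment numbers are given unscaled. At the most common preimmune background of 4.89 fragments, 34 of the 315 sites stayed below that p, 27 (8.57%, against 1.99% of all autosomal Pita intervals) equalled it within 0.001, and 254 (80.6%, 75.9 to 84.6) exceeded it, against 95.2% of all autosomal Pita intervals. With the threshold at the 5th percentile of the preimmune list, a −log10 p of 7.91, the count above it was 79 in place of 254. The background of 4.89 was the lowest in the preimmune list, so none of its backgrounds would have brought the 34 to the weakest p. Only 11.5% of the list's intervals on these arms used 4.89, so the 254 are counted at the floor, not at a typical background. Among Pita-alone sites called against both controls with at most 106 Pita fragments, 20.1% used it. The median background needed to miss a lost site was 7.10 fragments (6.53 to 7.10; range 3.38 to 32.3). At sites that were called, the preimmune list used a median of 7 fragments on these arms, with a 95th percentile of 15 and a highest value of 41. At Pita-alone sites called against both controls with at most 106 Pita fragments, the median was 6 fragments (n = 283; 95th percentile 11, highest 16), below the median needed. Both sets hold called sites only, so they do not measure the preimmune background at lost sites. At 162 lost sites (51.4%, 45.9 to 56.9) the background needed was above 7 fragments, against 87.6% of all autosomal Pita intervals. The background needed and the p at 4.89 fragments both follow from the Pita pileup alone. These shares therefore restate the low pileups of lost sites, and nothing further is read from them. A site can also be missed because its interval is shorter than the minimum, which was 218 bp in both lists, so the background needed is a lower bound only for a site whose preimmune interval would have been long enough.

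At 10 lost sites (3.17%, 1.73 to 5.74) the background needed was above 15 fragments, the 95th percentile of the preimmune list, against 65.6% of all autosomal Pita intervals. That difference, too, follows from the pileup alone. The 10 sites held 61 to 106 Pita fragments in intervals of 277 to 464 bp. The first, chr2R:11735444-11735859, needed 32.3 fragments, beside a scaled pileup of 56.4. It was followed by chr3R:11866662-11867030 (21.4), chr2L:19426552-19426899 (20.0), chr2L:21237815-21238144 (19.3) and chr2L:107655-108016 (18.6), and the remaining 5 needed 15.2 to 18.6. Of the 10, 7 lay on 2L, 2 on 2R, 1 on 3R and 0 on 3L. All autosomal Pita intervals had 25.2% on 2L, 19.8% on 2R, 28.6% on 3R and 26.4% on 3L. The split of these 10 sites was not tested. The 81 Pita-alone sites with 60 to 79 fragments that were called against both controls had a preimmune background of 4.89 to 15 fragments, with a median of 7. Their preimmune intervals were 219 to 574 bp long with a median of 311 bp, so the shortest was close to the minimum length. Whether interval length played a part at the 10 lost sites was not tested. The fragments of the preimmune library at the lost sites are not in the lists.

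**Figure D3:**
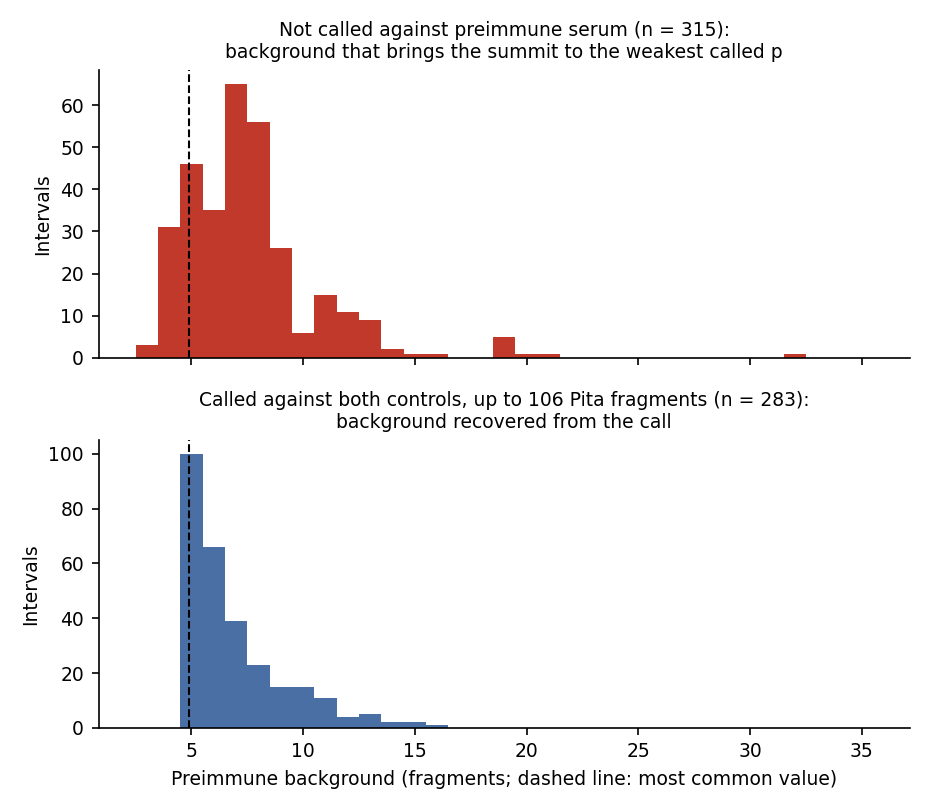
Top, for each of the 315 lost intervals, the preimmune background (x axis, fragments) that brings the summit to the weakest called p; bottom, the background recovered from the call at the 283 Pita-alone intervals called against both controls with at most 106 Pita fragments. The y axes count intervals, and the dashed line marks the most common background, 4.89. Most lost intervals lie between 4.89 and 12, as do most called ones, with a few lost ones from 15.2 to 32.3.

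By count, the lost sites were split almost evenly over the 4 arms, while their density was lowest on 3R. Arm 2L held 84 (26.7%, 22.1 to 31.8), 2R 72 (22.9%, 18.6 to 27.8), 3L 81 (25.7%, 21.2 to 30.8). Arm 3R held 78 (24.8%, 20.3 to 29.8). Among Pita-alone sites called against both controls the shares were 24.8%, 19.0%, 27.5% and 28.7% in the same order, and over all autosomal Pita intervals 25.2%, 19.8%, 26.4% and 28.6%. Up to the highest coordinate in any list, lost sites numbered 3.68 per Mb on 2L, 3.61 on 2R, 3.38 on 3L and 2.80 on 3R. Both-called Pita-alone sites numbered 8.90, 7.82, 9.39 and 8.44 per Mb. Of the Pita-alone sites, 31.6% (25.9 to 37.9) were lost on 2R, 29.3% (24.3 to 34.8) on 2L, 26.5% (21.8 to 31.7) on 3L and 24.9% (20.5 to 30.0) on 3R, with overlapping intervals.

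Strength differed little between arms. The median fold over input of lost sites was 3.34 on 2L, 3.30 on 2R, 3.25 on 3L and 3.32 on 3R, and the median pileup was 36, 36, 35 and 38 fragments. The highest lost site on 3L reached only 5.63-fold with 58 fragments. In windows of 1 Mb, lost sites were found in 89 of 95 windows, and both-called Pita-alone sites in all 95. The sets differ in size, 315 against 819, so nothing is read from that difference. The fullest window, chr2L:8000001-9000000, held 10 lost and 6 both-called sites. The next were chr2L:16000001-17000000 with 9 and 10, and chr2R:9000001-10000000 with 9 and 11.

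**Figure D4:**
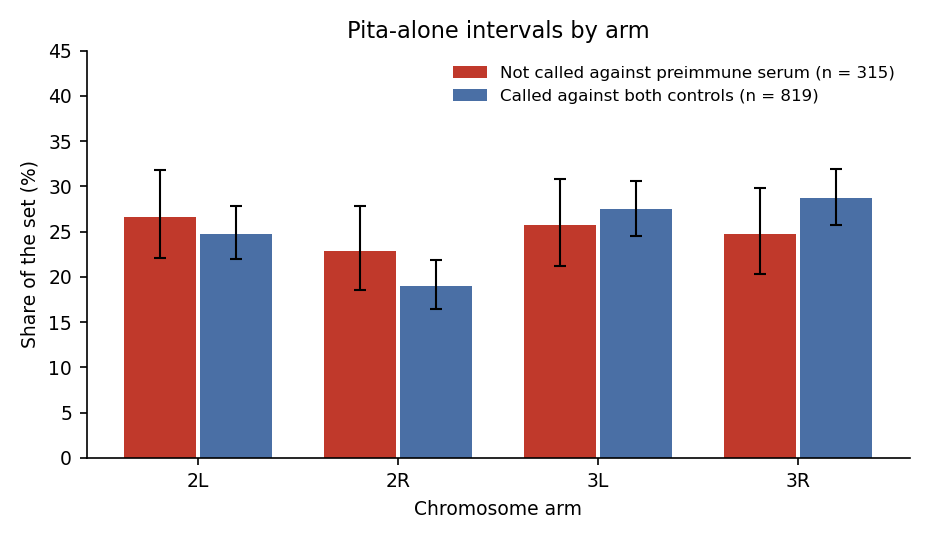
Share of each set on the 4 large autosomal arms (y axis, percent): red, the 315 intervals not called against preimmune serum; blue, the 819 called against both controls. Whiskers are Wilson 95% intervals that cover counting error only, and they overlap on every arm.

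Some lost sites lay close to another Pita site. Another Pita summit of the input list lay within 2 kb of 46 lost sites (14.6%, 11.1 to 18.9), against 76 both-called Pita-alone sites (9.28%, 7.48 to 11.5) and 10.5% of all autosomal Pita intervals. Within 5 kb the share was 24.4% (20.0 to 29.5) against 19.8% (17.2 to 22.6), with 20.6% over all. Within 20 kb it was 55.6% (50.0 to 60.9) against 52.7% (49.3 to 56.1), with 52.4% over all. Sites of 1 library are not replicates, and these differences were not tested. At the 46 sites the nearest other summit was called against both controls in 38 cases (82.6%) and was another lost site in 7. Over the 147 autosomal Pita intervals with such a neighbour, 65.3% of the neighbours were called against both controls. The lost site held fewer fragments than its neighbour in 42 of 46 cases (91.3%), with a median of 35 against 154, while 49.0% of the 147 were lower than theirs. Lost sites were in effect chosen for low pileups, so nothing is read from these counts. The shortest distance between these summits was 477 bp and the median 1032 bp. Another lost site lay within 5 kb of 22 lost sites.

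ZIPIC and Zw5 summits were seldom close. A ZIPIC or Zw5 summit of the input lists lay within 5 kb of 36 lost sites (11.4%, 8.37 to 15.4), against 72 both-called Pita-alone sites (8.79%, 7.04 to 10.9). ZIPIC accounted for 15 of the lost sites (4.76%, 2.91 to 7.71) and Zw5 for 24 (7.62%, 5.17 to 11.1). Over all autosomal Pita intervals the shares were 26.9% for either protein, 10.6% for ZIPIC and 21.8% for Zw5, which include the intervals that the choice of sites removed. The preimmune lists of ZIPIC and Zw5, which did not enter the choice, overlapped 0 of the 315 lost sites (Wilson upper bound 1.20%) and 0 of the 819 both-called ones, against 4.77% and 5.20% of all autosomal Pita intervals. Most intervals of those lists are also in the input lists, so this count was nearly fixed.

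**Figure D5:**
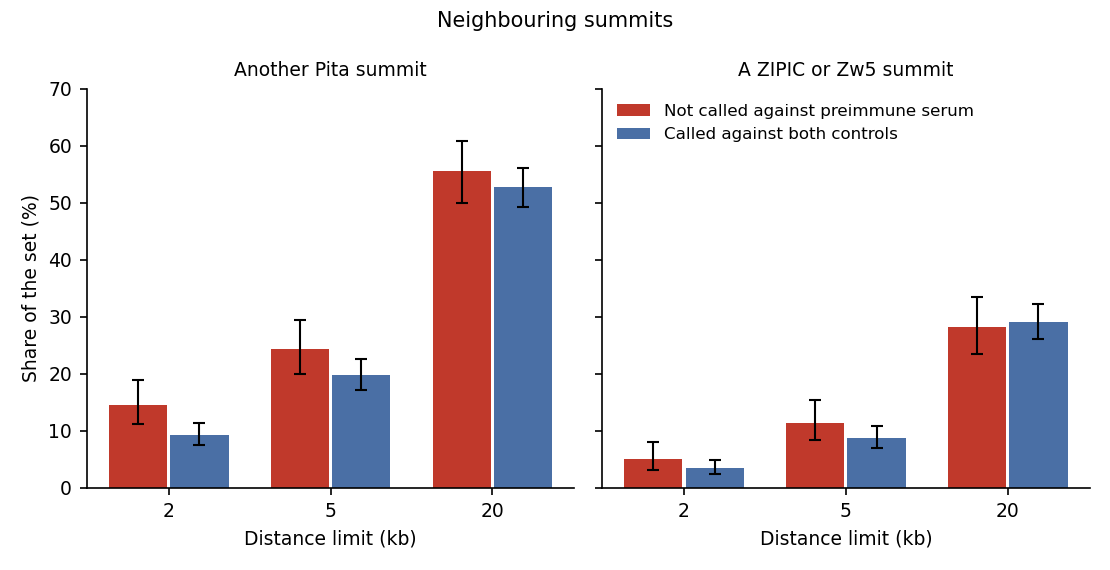
Share of intervals (y axis, percent) with another Pita summit (left) or a ZIPIC or Zw5 summit (right) within 2, 5 or 20 kb (x axis). Red is the 315 lost intervals and blue the 819 called against both controls; whiskers are Wilson 95% intervals that cover counting error only. The left panel shows 14.6% against 9.28% at 2 kb and 55.6% against 52.7% at 20 kb.

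The choice of sites did not hinge on intervals that nearly touched. The lost site nearest to a Pita preimmune-list interval, chr3R:7171226-7171518, was separated from it by 105 bp. The next 4 gaps were 131 bp at chr3L:18839426-18839691, 148 bp at chr3R:6174790-6175313, and 208 bp at both chr2R:7296386-7296799 and chr2R:8024839-8025084. Gaps of at most 500 bp were found at 21 lost sites (6.67%) and the median gap was 22779 bp. On the other side of the rule, the smallest overlap that removed an interval was 150 bp, between chr2L:16582770-16582987 and a ZIPIC interval. The next were 152 bp at chr3R:15316723-15317105, 179 bp at chr3R:13211452-13211686, 183 bp at chr3L:8388146-8388462 and 189 bp at chr2L:7856445-7856710, all with ZIPIC. The 41 autosomal Pita intervals that had no preimmune call but lay on ZIPIC (17) or Zw5 (30) had a median fold over input of 3.26 (3.04 to 3.64) and a median of 39 fragments (35 to 43).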

How the data were processed

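Per the submitters' processing notes, reads were processed with cutadapt and Bowtie, and peaks were called with MACS2 2.1.0.20140616 on dm3. The sources used here give neither the arguments nor how duplicate reads were treated. The 6 deposited peak lists give for each interval a fold (ratio) over the local background, −log10 p and −log10 q, a score that is 10 times −log10 q, and a summit offset, all as the authors made them. Peaks were called per library. Members and measures were chosen with earlier results of these data known. Each summit's pileup k and background λ were solved from fold = (k + 1)/(λ + 1) and the Poisson upper tail at the whole part of k, and accepted as whole within 0.05. Where several solutions had a background no lower than the most common one, the solution nearest a whole count was taken. On simulated summits this recovered 100% of 299 unscaled and 100% of 293 scaled pileups. Overlap required 1 bp. Shares have Wilson intervals, medians order-statistic intervals and single pileups exact Poisson intervals, all at 95%, covering counting error only. With 1 library per protein no test was made. The named sites were the 12 highest and 5 lowest by fold, the 3 highest per arm, and 5 each by width, nearness to a preimmune interval, input background and preimmune background needed. In addition, 5 intervals just outside the rule were named. Sequence and genes near the sites were not analysed here. The lists do not give library totals, only the relative depths derived from them. Python 3.11.15, numpy 2.4.6, pandas 2.3.3, scipy 1.17.1 and matplotlib 3.10.9 were used.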

Additional observations from a re-analysis of the deposited data

How the results depend on the processing

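The number of lost sites, 315, ran under the 6 other rules tried from 258 with a −log10 q of at least 5 to 356 with no exclusion by ZIPIC or Zw5. It was 315 with an overlap of 50% of the shorter interval, 316 with the summit inside the other interval and 292 with gaps of up to 500 bp counted as overlap. With a −log10 q of at least 5, 24.0% of Pita-alone sites were lost, and lost sites had a median fold of 3.44, a pileup of 38 and a width of 280.5 bp, since that rule removes the weakest. With gaps of up to 500 bp counted, 19.2% had another Pita summit within 5 kb, since close neighbours are removed. At limits of 2 and 20 kb that share was 14.6% and 55.6%, and the share near ZIPIC or Zw5 was 5.08% and 28.3%. The interval with the lowest q in the preimmune list also had the lowest p, so the planned change of that threshold was no change, and the count of sites above it was 254 by construction. That count fell to 79 at the 5th percentile of the preimmune list's −log10 p (7.91), an alternative chosen after seeing the data. Arm shares stayed inside their intervals in 24 of 24 cases, but the rules kept largely the same sites, so this was nearly fixed. A motif and gene starts were not run, because the genome and annotation at hand were not of the files' build. No paired analysis was possible because each group has 1 library. Depth limits what is known most where a site has under 50 fragments, as 282 of the 315 did. The lower quartile was 77 fragments at both-called Pita-alone sites and 47 over all autosomal Pita intervals. Pileup entered the choice of sites, so the 282 describe that choice.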

Other observations

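The same rule applied to X gave 50 lost sites among 283 Pita-alone intervals (17.7%, Wilson 95% interval 13.7 to 22.5), against 27.8% on the 4 arms. Their median fold over input was 3.44 and the highest 4.81. On chromosome 4 it gave 10 of 19 (52.6%, 31.7 to 72.7), with a median fold of 3.93, and on the unplaced sequence Uextra 3 of 9 (33.3%, 12.1 to 64.6). These differences were not tested.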
